A study of Mus musculus with 4 samples.

Results

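The genes described here are 10 chaperone and co-chaperone genes that were followed in single antigen-specific B cells of the mouse spleen. They are Hspa8, Hsp90ab1, Hsp90aa1, Stip1, St13, Hspe1, Hspd1, Dnaja1, Hsph1 and Cacybp, and they were taken from a fixed list, as 10 of the 32285 genes in the count tables. Several of them, Hspa8, Hsp90ab1 and Hspe1 among them, have near-identical pseudogene copies, so their counts are uncertain, and levels are not compared between genes. All 10 were counted in both mRNA libraries and passed the filter on low counts in every comparison. The list is called cytosolic heat shock chaperones, but Hspe1 and Hspd1 encode the chaperonin of the mitochondrial matrix and Cacybp encodes an adaptor protein, so the name covers 7 of the 10. The members were chosen by measured values of these data, their differences between B-cell states and between recipient groups. Values of those comparisons are therefore given as a description, with no test of a member, and nothing is read from the counts of calls over all genes that stand beside them. The comparison of CD45.2 with CD45.1 cells of the same recipient was not itself used in that choice and was tested. Its sums also enter the group differences that were used, so calls of members are not independent of the choice.

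The question of the study was what loss of DOCK8, a guanine nucleotide exchange factor of the immune system, does to B cells in the germinal center (GC). Splenic MD4 B cells, which carry a B cell receptor transgene against hen egg lysozyme (HEL), were transferred into CD45.1+ WT mice that were then immunized with sheep red blood cells coupled to HEL, and HEL+ CD95+ cells were sorted on day 8. The study used mice of both sexes aged 8 to 12 weeks. Each recipient was given a mixture of CD45.1+ MD4 cells, wild type for Dock8, with CD45.2+ MD4 cells that carry a B cell-restricted BCL2 transgene. In the 3 recipients of the WT group the CD45.2 cells were Dock8 wt/wt. In the 3 recipients of the DOCK8-deficient group they were Dock8 cpm/cpm, a point mutation that removes the protein. The CD45.1 cells carry no BCL2 transgene and are wild type in both groups. Hashtag antibodies marked the 6 recipients, and each sorted fraction was 1 mRNA library, so the sort, the transgene, the CD45 allele and the library cannot be told apart.

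After filtering, 6488 CD45.2 and 3204 CD45.1 cells were kept, and 6 barcodes were shared between the libraries. Counts were summed per recipient over cells that were neither plasma cell-like nor T cell-like. These sums held 1229 to 1925 cells in the CD45.2 fraction of the WT group, 268 to 628 cells in the CD45.1 fraction, and only 37 to 88 cells in the CD45.2 fraction of the DOCK8-deficient group, with 294047 to 12620514 counts each. The small sums depended on the hashtag call. They held 140 to 414 cells with a 3-fold hashtag rule and 119 to 414 with hashtags normalized over each cell. Marker genes of other cell types summed to at most 96.7 CPM (counts scaled to a common total per sum) for the T cell list, 42.3 CPM for the myeloid list and 102 CPM for the erythroid list. Dock8 mRNA itself, over all cells, was 105, 99.3 and 95.7 CPM in DOCK8-deficient CD45.2 cells and 83.5 to 99.1 CPM in WT CD45.2 cells. A point mutation need not lower its transcript, so this checks no label.

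The sex-linked genes did not match a note of the study that the WT cells came from male and the mutant cells from female donors. Xist, the RNA made from the inactive X chromosome in females, was 1203 to 1429 CPM in the CD45.2 cells labelled WT and 281 to 406 CPM in those labelled DOCK8-deficient. The Y-linked genes Ddx3y, Eif2s3y, Kdm5d and Uty summed to 4.39 to 5.02 CPM and to 152 to 189 CPM in the same order. Donor sex and genotype cannot be told apart in the CD45.2 fraction. Whether the note or the groups were exchanged was not tested, and an exchange of the groups would turn the sign of every difference between DOCK8-deficient and WT recipients given here. The sums labelled DOCK8-deficient were those with few CD45.2 cells, as given above, and their Activated/Memory-like share was the lower one, at 1.75, 4.55 and 8.91% against 22.4, 11.8 and 24.9% of a recipient's CD45.2 cells. Among the 202 DOCK8-labelled CD45.2 cells, 28 had Xist above 400 CPM and no Y-linked count, the pattern of the WT-labelled cells. Of these 28 cells 64.3% were in dark zone (DZ)-like states, against 15.5% of the other 174, and their median depth was 9336.5 against 5748 counts per cell. Values of the DOCK8-deficient CD45.2 cells are therefore given with and without them, an alternative that was chosen after the data were seen.

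Molecular chaperones bind unfolded protein and release it in cycles of ATP hydrolysis. HSP70 proteins act early on a client, HSP90 dimers act late, and co-chaperones pass clients between them or set the pace of the cycle. The constitutive members serve every growing cell, while the transcription factor HSF1 adds to them under proteotoxic stress through heat shock elements, arrays of the unit GAA in alternating orientation. In the GC, B cells alternate between division in the DZ and selection in the light zone (LZ), and those that leave become memory cells or antibody-secreting plasma cells.

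Sequence matches to units of heat shock elements stand near the transcription starts of several members. Windows from 250 bases before to 50 bases after a start were at hand from RefSeq (GRCm38.p6) for 6 of the 10 genes, Stip1, Hspe1, Hspd1, Dnaja1, Hsph1 and Cacybp. The pairs GAANNTTC and TTCNNGAA, each its own reverse complement, were searched, and 4 of the 6 genes had a match in at least 1 window. That count is per gene, over 10 windows in all, whereas the shares that follow are per window. Of 32851 windows of all genes, 15.1% held either pair and 0.603% held 3 or more units in a row. The stretches are shown because heat shock elements are the kind of site by which HSF1 is known to act on this gene family. The GAA and TTC units of the matches are in capitals.
Hspe1, chr1:55088053-55088082, plus strand, 95 to 66 bases before the start: ggtccgTTCtaGAAccTTCcgGAAggcccc
Dnaja1, chr4:40722333-40722362, plus strand, 135 to 106 bases before a start: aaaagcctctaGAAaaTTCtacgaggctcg
Hsph1, chr5:149636287-149636316, minus strand, 20 to 49 bases after a start: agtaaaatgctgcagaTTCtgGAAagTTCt

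Hspe1 and Hspd1 are neighbours in opposite orientation on chromosome 1, and the array of 4 units printed for Hspe1 also lies in the window of Hspd1. In the annotation of the counted genome (mm10, GENCODE M21) that stretch falls in an exon and UTR of Hspd1, the Dnaja1 stretch in an exon of a Dnaja1 transcript and within the gene Gm6297, and the Hsph1 stretch overlaps an exon and UTR of Hsph1. The stretch printed for Hsph1 is an array of 3 units, the gene had a further single pair before its start, and no window of Stip1 or Cacybp held either pair. The stretch printed for Dnaja1 is a single pair, found in 1 of the 3 windows of that gene. A match is a run of letters and was not measured as a binding site.

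Across B-cell states, all members but Hspe1 were highest in a DZ-like state in CD45.2 cells of the WT group, and Hsp90aa1 spanned the widest range. In CD45.1 cells 8 states had a level. LZ1-like, where Hspe1 was highest in CD45.2 cells, and LZtoPrePC/Memory-like had none. Among these 8 states all 10 genes had their highest mean in a DZ-like state, Hspe1 in early S cells with 448 CPM. The share of all genes highest there was not counted for CD45.1 cells. States are clusters named from marker genes, and the members and related chaperones were left out of the genes that built the clusters. In CD45.2 cells of the WT group 9 of the 10 had their highest mean in one of the DZ-like states (S phase with high histone mRNA, early S phase, or G2M), where 32.9% of 7437 genes with a mean of at least 10 CPM had theirs. Of the 10, 7 were lowest in plasma cell-like cells, as were 51.8% of all genes. Immunoglobulin transcripts took 36.2 to 37.3% of the counts of plasma cell-like cells, and with non-immunoglobulin counts as the total only Hspa8 and Hsp90ab1 were lowest there.

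**Figure D1:**
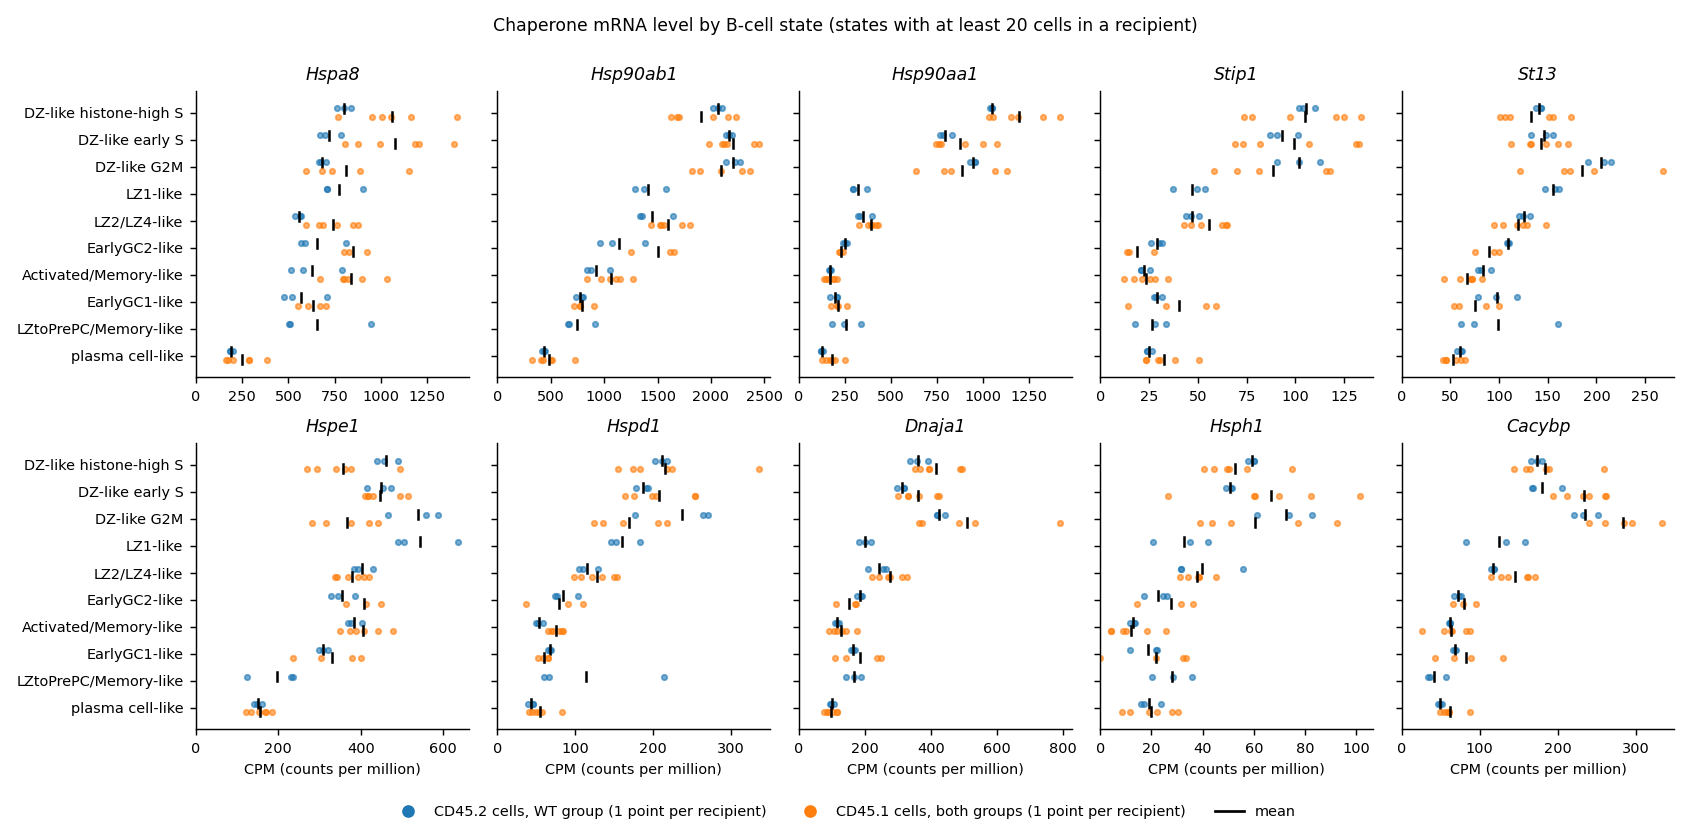
Level of each of the 10 genes (x axis, CPM) in each B-cell state (y axis) for states with at least 20 cells in a recipient; points are recipients, blue for CD45.2 cells of the WT group and orange for CD45.1 cells of both groups, and black bars are means. For Hsp90aa1 the DZ-like points stand clear of all other states, whereas for Hspa8 the ranges of neighbouring states overlap except for the plasma cell-like one.

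Hsp90aa1, the inducible cytosolic HSP90 isoform, was 1042, 1053 and 1051 CPM in the DZ-like histone-high S cells of the 3 WT recipients. It was 324, 331 and 396 CPM in their LZ2/LZ4-like cells and 166, 170 and 174 CPM in their Activated/Memory-like cells. The DZ-like values lay above all others without overlap, and the ratio of histone-high S to Activated/Memory-like cells was 6.04 to 6.28 in the 3 recipients. In CD45.1 cells the same ratio was 5.58 to 8.59 over 6 recipients. Next to each other in the order of means, the LZ2/LZ4-like, LZ1-like, LZtoPrePC/Memory-like and EarlyGC2-like ranges overlapped, and so did EarlyGC1-like and Activated/Memory-like.

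Hspa8, the constitutive cytosolic HSP70 that also strips clathrin coats, varied least in CD45.2 cells of the WT group once plasma cell-like cells were set aside. Its mean was 802 CPM in histone-high S, 773 CPM in LZ1-like, 627 CPM in Activated/Memory-like and 555 CPM in LZ2/LZ4-like cells of the WT group, and the ranges of neighbours in this order all overlapped. The ratio of the highest to the lowest mean of its 9 states was 1.44. In CD45.1 cells, without a level for LZ1-like and LZtoPrePC/Memory-like cells, the ratio was 1.70 for Hspa8, and Hspe1 had the smallest, at 1.36. For Hspe1 those were the highest and lowest states in CD45.2 cells, with a ratio of 2.77. Plasma cell-like cells had 201, 186 and 184 CPM, below every other state in all 3 recipients, and 300 CPM on average with non-immunoglobulin counts as the total. WT recipient 3 had the highest Hspa8 level of the 3 in all states but G2M and plasma cell-like, for example 787 CPM against 580 and 514 CPM in Activated/Memory-like cells.

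Hsp90ab1, the constitutive HSP90 isoform, was 2212 ± 66.3 CPM in G2M cells, 2169 ± 27.0 CPM in early S and 2063 ± 42.7 CPM in histone-high S cells (SD, n = 3). It was 1445 ± 176 CPM in LZ2/LZ4-like, 922 ± 117 CPM in Activated/Memory-like and 434 ± 12.6 CPM in plasma cell-like cells. The 3 DZ-like states lay above all others, while the LZ2/LZ4-like, LZ1-like and EarlyGC2-like ranges overlapped from one to the next. Beside its inducible relative, Hsp90ab1 had a ratio of 1.43 between histone-high S and LZ2/LZ4-like cells and Hsp90aa1 a ratio of 2.99.

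The co-chaperones of the HSP90 cycle also had their highest mean in a DZ-like state. Stip1 (HOP), which holds HSP70 and HSP90 together, was 105 ± 4.29 CPM in histone-high S and 22.4 ± 2.86 CPM in Activated/Memory-like cells, a ratio of 3.96 to 5.30 in the 3 recipients. Cacybp, which binds ubiquitin ligase and S100 proteins and has a region like that of HSP90 co-chaperones, was 235 ± 15.1 CPM in G2M and 61.3 ± 0.0866 CPM in Activated/Memory-like cells. St13 (HIP), which slows the release of ADP from HSP70, went from 205 ± 11.6 CPM in G2M to 83.8 ± 7.35 CPM in Activated/Memory-like cells. Its LZ1-like mean of 155 CPM came second, above early S with 146 CPM, whose range overlapped, and histone-high S with 141 CPM.

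Both remaining partners of HSP70 were highest in G2M. Dnaja1, a J-domain protein that starts ATP hydrolysis by HSP70, was 426 ± 13.2 CPM in G2M and 115 ± 5.04 CPM in Activated/Memory-like cells. Hsph1, the HSP110 nucleotide exchange factor, was 72.6 ± 10.9 and 12.8 ± 1.16 CPM in the same states. Of the mitochondrial pair, Hspd1 (HSP60) was 237 ± 52.8 CPM in G2M and 53.7 ± 4.68 CPM in Activated/Memory-like cells. Its lid Hspe1 (HSP10) was highest in LZ1-like cells, with 545 ± 80.3 CPM, and the ranges of the first 7 states in its order overlapped from one to the next. In CD45.1 cells Hspe1 was higher in histone-high S than in Activated/Memory-like cells in only 1 of 6 recipients, with ratios of 0.616 to 1.22.

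Sequencing depth moved with these states. DZ-like cells of the CD45.2 WT group held 9277 to 14352 counts per cell and Activated/Memory-like cells 6421 to 6817. Counted as UMIs per cell, without a total, all 10 genes were highest in a DZ-like state, and Hsp90aa1 went from 1.12 ± 0.0543 in Activated/Memory-like to 13.3 ± 1.57 in histone-high S cells. This measure rises with depth, and the share of all genes highest there was not counted. Nothing about the members is read from that count. LZtoPrePC/Memory-like cells were shallow, at 1983 to 2366 counts per cell, and their levels spread widely between recipients, from 181 to 339 CPM for Hsp90aa1.

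Over the 32 sums of a recipient and a state in CD45.2 cells of the WT group, Hsp90ab1 followed the mean of the other 9 genes most closely (Pearson's r = 0.96 on log2(CPM + 10)) and Hspa8 least (r = 0.62). Without plasma cell-like cells, over 29 sums, Stip1 and Dnaja1 had r = 0.94 and Hspa8 and Dnaja1 r = 0.24. Among 2662 other genes with a mean of at least 50 CPM, the ones most like the members' mean were Set (r = 0.96), a histone chaperone, Ppia (r = 0.96), the prolyl isomerase cyclophilin A, Eif5a (r = 0.95), a translation factor, Snrpd3 (r = 0.95), a core splicing protein, and Nhp2 (r = 0.95), of the box H/ACA ribonucleoproteins. Set was 927 CPM in histone-high S, 289 CPM in Activated/Memory-like and 206 CPM in plasma cell-like cells. These sums share libraries, recipients and the depth differences given above, and the values are a description.

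Between recipient groups all 10 genes had higher fitted levels in DOCK8-deficient than in WT CD45.2 cells. The median log2 difference was 0.44 (0.12 to 0.50), against −0.018 over all 10250 genes fitted, of which 19 were called (0.185%) and 47.5% had a difference above 0. In 6 of the 10 every DOCK8-deficient recipient was above every WT recipient, as in 12.8% of all genes. This is the contrast in which 5 of the members (Hspa8, Hsp90ab1, Hsp90aa1, St13 and Dnaja1) are on a gene list of the study itself, so nothing is read from these counts. Beside them, the myeloid list of 10 genes summed to 36.7 to 42.3 CPM in WT and 19.3 to 23.8 CPM in DOCK8-deficient CD45.2 cells without overlap, and 7 of its genes were at 0 in all 3 DOCK8-deficient sums. The T cell list (48.7 to 63.6 against 41.3 to 63.9 CPM) and the erythroid list (27.4 to 37.4 against 22.0 to 57.8 CPM) overlapped. The part of these cells in the differences was not tested.

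St13 was 163, 184 and 217 CPM in DOCK8-deficient recipients 1, 2 and 3, against 117, 128 and 130 CPM in the WT recipients. The groups did not overlap, and the log2 difference was 0.50 ± 0.12 (SE). Hsp90aa1 was 587, 860 and 838 CPM against 498, 489 and 573 CPM, with DOCK8-deficient recipient 1 just above the highest WT recipient and a log2 difference of 0.44 ± 0.12. Hspa8 was 829, 1024 and 976 CPM against 640, 596 and 784 CPM, a log2 difference of 0.37 ± 0.11, again without overlap. In each of these genes the DOCK8-deficient recipient 1 was the lowest of its group.

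Dnaja1 was 265, 429 and 388 CPM against 238, 246 and 243 CPM, and Hspd1 was 160, 197 and 219 CPM against 129, 121 and 145 CPM. Cacybp was 143, 163 and 212 CPM against 117, 123 and 126 CPM. These were the other 3 genes without overlap. For Hsp90ab1 the values were 1425, 1969 and 1931 CPM against 1369, 1389 and 1622 CPM, and the groups overlapped because of recipient 1. Hspe1, Stip1 and Hsph1 overlapped as well, with Stip1 at 60.6, 47.6 and 91.0 CPM against 57.2, 56.8 and 62.7 CPM.

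Leaving out the Xist-high cells, from the DOCK8-deficient CD45.2 sums only, lowered all 10 of these differences. The sums went from 56, 37 and 88 to 52, 28 and 79 cells. The rest of the 28 cells were plasma cell-like or T cell-like and were never in these sums. The median over the 10 genes fell from 0.44 to 0.11, and 3 genes (Hspa8, St13 and Dnaja1) still stood apart. Hsp90aa1 went to 533, 516 and 652 CPM and a log2 difference of 0.03 ± 0.11, and Stip1 to −0.04 ± 0.21. St13 was little changed, at 162, 167 and 214 CPM with a difference of 0.46 ± 0.13, and Hspa8 was at 0.26 ± 0.11. Over all states, the 28 cells had 6743 CPM over the 10 genes together and the other 174 cells 4279 CPM. In WT CD45.2 cells, from which none were left out, the same split also separated the levels. The 5373 WT cells with the pattern had 3170 CPM and 20.2% DZ-like cells, the other 913 had 2485 CPM and 12.5%.

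**Figure D2:**
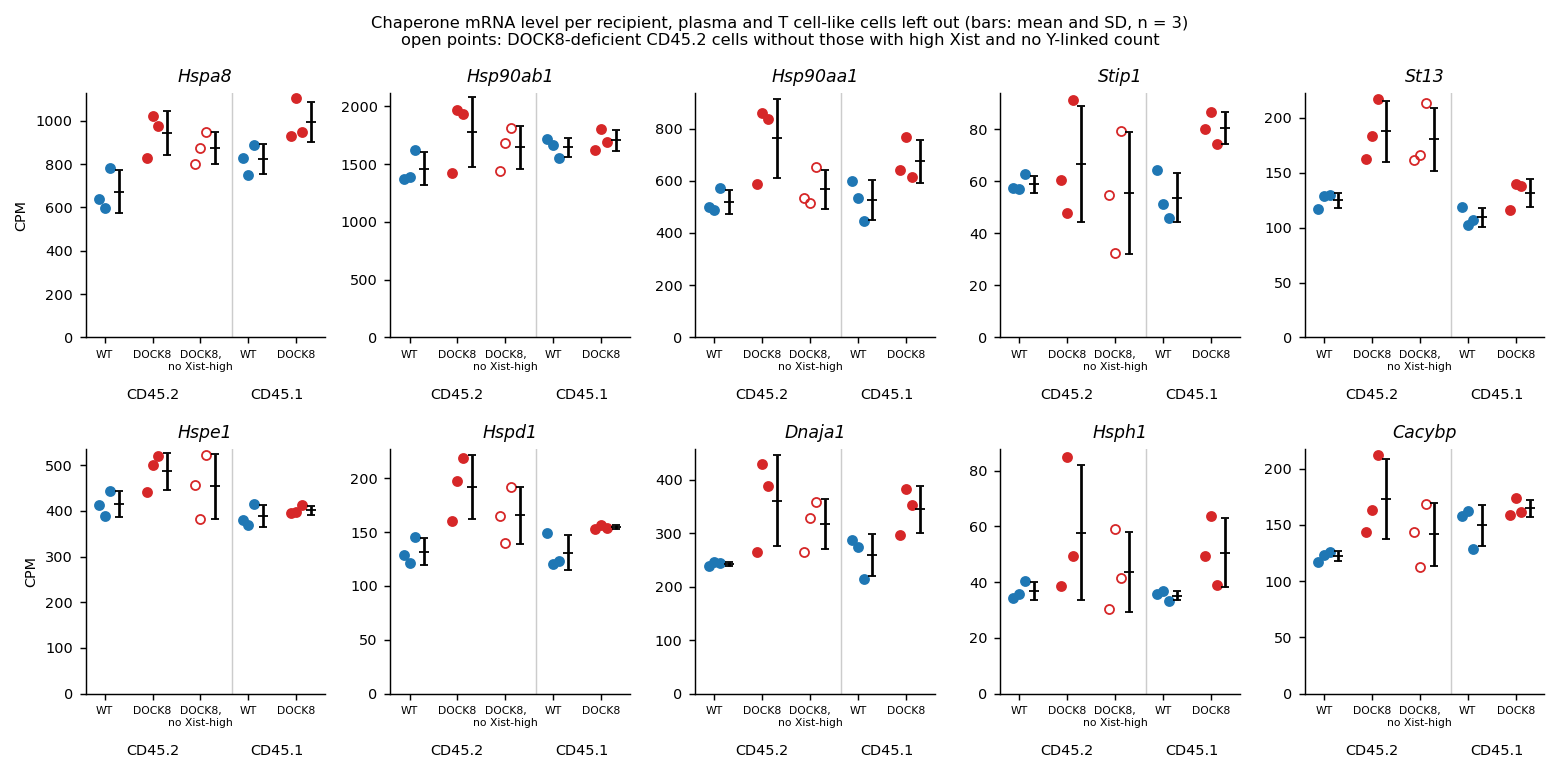
Level of each gene (y axis, CPM) per recipient, for CD45.2 cells and CD45.1 cells of the WT (blue) and DOCK8-deficient (red) groups; open points are DOCK8-deficient CD45.2 cells without the Xist-high cells, and bars are mean and SD of 3 recipients. The St13 and Hspa8 points of the DOCK8-deficient group stay above the WT points with and without those cells, while the open Hsp90aa1 points overlap the WT points.

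The CD45.1 cells, which are wild type in both groups, were also higher in the recipients of the DOCK8-deficient group. All 10 fitted differences were above 0, with a median of 0.23 (0.01 to 0.56) against −0.0017 over 8663 genes, of which 49.7% were above 0. This comparison was also used to choose the genes. edgeR called 0 of the 8663 genes (0%), of which 592 had an unadjusted p under 0.05, and DESeq2 called 0 of 14788. In 6 of the 10 the groups did not overlap, as in 7.43% of all genes. Stip1 was 80.2, 86.5 and 74.3 CPM against 64.2, 51.1 and 45.8 CPM, the largest difference of the 10 at 0.56 ± 0.12. Hsp90aa1 was 640, 769 and 614 CPM against 600, 532 and 445 CPM, and Hspa8 was 931, 1103 and 949 CPM against 829, 749 and 887 CPM. Dnaja1, Hsph1 and Hspd1 stood apart too. Hsp90ab1 (0.02 ± 0.07) and Hspe1 (0.01 ± 0.09) had the smallest differences.

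Set against each other in the same recipients, the group difference in CD45.2 cells less that in CD45.1 cells went from −0.41 ± 0.23 for Stip1 to 0.30 ± 0.16 for Cacybp (log2, SE). Both group differences were used to choose the genes, so these values are a description.

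**Figure D3:**
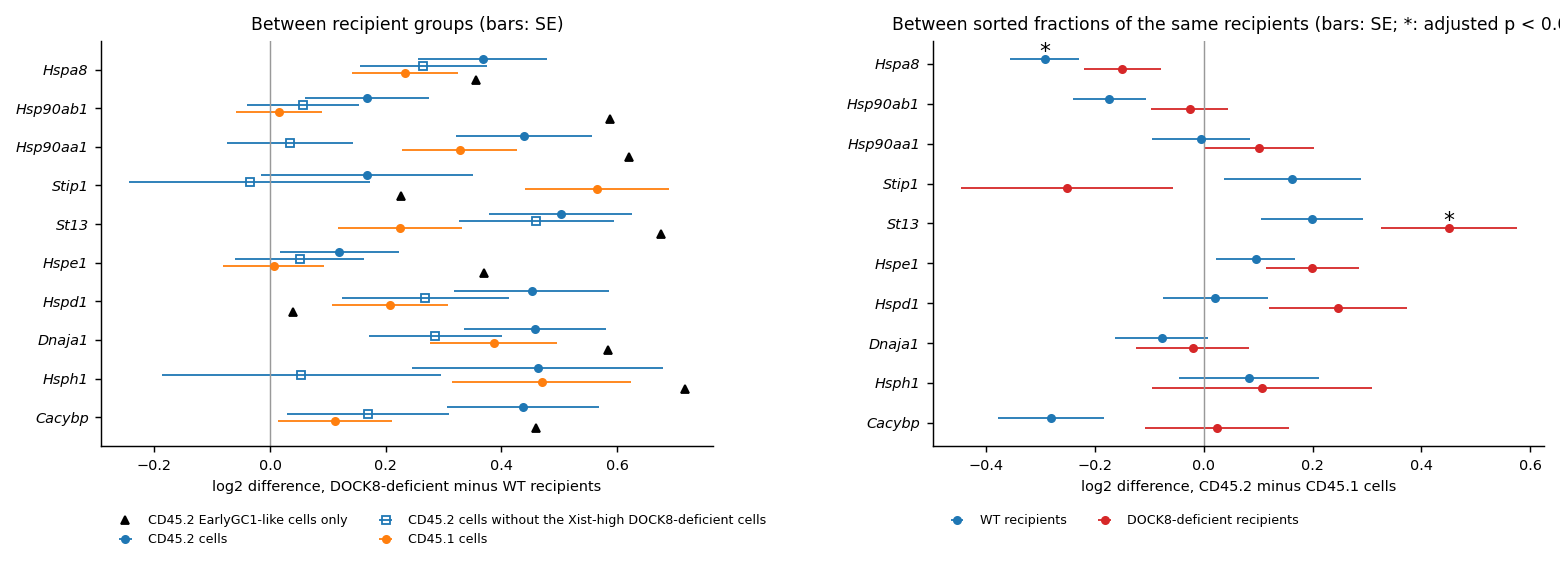
Fitted log2 differences of the 10 genes with SE bars. Left, DOCK8-deficient minus WT recipients in CD45.2 cells (filled blue), in CD45.2 cells without the Xist-high DOCK8-deficient cells (open squares), in CD45.1 cells (orange) and, as a ratio of means with no error, in CD45.2 EarlyGC1-like cells (triangles); right, CD45.2 minus CD45.1 cells in WT (blue) and DOCK8-deficient (red) recipients, where stars mark Hspa8 and St13.

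The groups also differed in their mix of states. EarlyGC1-like cells made up 29.8, 34.1 and 33.7% of the DOCK8-deficient and 24.7, 18.4 and 8.01% of the WT CD45.2 cells of a recipient, with the Activated/Memory-like shares given above. LZ1-like cells were 21.1, 6.82 and 7.92% against 4.38, 3.99 and 4.13% of the CD45.2 cells. In the CD45.1 cells, plasma cell-like cells were 7.86, 20.4 and 13.4% against 19.5, 26.4 and 32.4% and LZ2/LZ4-like cells were 45.8, 29.8 and 47.0% against 24.3, 38.9 and 16.4%. DZ-like cells were 22.8, 25.0 and 20.8% against 18.2, 16.3 and 24.3% of the CD45.2 cells. They were 27.8, 27.7 and 18.3% against 25.8, 16.4 and 18.6% of the CD45.1 cells. Plasma cell-like cells were left out of the sums behind the group differences. The part of the other shares in those differences was not tested, and the levels within states were as follows.

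EarlyGC1-like was the one state with at least 10 CD45.2 cells in each recipient, with 17, 15 and 34 cells in the DOCK8-deficient recipients. Within it all 10 genes had a higher mean in the DOCK8-deficient group, as did 60.5% of 7196 genes, and 6 did not overlap, as 10.9% of genes did not. The median log2 ratio was 0.52, and 0.50 without the Xist-high cells. Hsp90ab1 was 1167 ± 74.1 against 776 ± 31.9 CPM (SD, n = 3), a log2 ratio of 0.59, and Hsp90aa1 was 299 ± 20.7 against 195 ± 20.1 CPM, a ratio of 0.62. St13 had a ratio of 0.67, Dnaja1 of 0.58, Cacybp of 0.46 and Hspe1 of 0.37.

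In CD45.1 cells the median over the 10 genes was largest in the DZ-like and plasma cell-like states, and no difference between states was tested. The median log2 ratio was 0.45 in G2M, 0.32 in early S, 0.33 in histone-high S and 0.52 in plasma cell-like cells. It was 0.04 in Activated/Memory-like, 0.09 in EarlyGC1-like, −0.02 in EarlyGC2-like and −0.03 in LZ2/LZ4-like cells, where the genes went both ways, for example from −0.24 to 1.15 in EarlyGC1-like and from −0.49 to 0.40 in EarlyGC2-like cells. In G2M they went both ways too, from −0.20 to 1.26, with 7 of the 10 above 0, as in Activated/Memory-like cells. All 10 were above 0 in early S, histone-high S and plasma cell-like cells. The plasma cell-like state pools several clusters, whose part was not tested. Groups stood apart with the DOCK8-deficient group higher in 5, 5, 3 and 8 of the 10 genes in the first 4 states, where 5.82, 5.9, 5.56 and 7.98% of all genes did. In the other 4 states it was 0, 1, 0 and 1 gene, beside 5.52, 4.78, 4.44 and 4.47% of all genes. These were St13 in EarlyGC1-like cells, with 109 ± 8.08 against 66.6 ± 17.4 CPM, and Hspa8 in LZ2/LZ4-like cells, with 830 ± 62.1 against 649 ± 47.3 CPM. Hspa8 in Activated/Memory-like cells went the other way, with 917 ± 109 CPM in the WT and 756 ± 73.1 CPM in the DOCK8-deficient group, and so did Hsph1 in LZ2/LZ4-like cells (log2 ratio −0.24). In these states 4.53 and 5.28% of all genes were lower in every DOCK8-deficient recipient.

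In dividing CD45.1 cells Hsph1 and Stip1 had the largest ratios in G2M and early S, and Stip1 in histone-high S. Stip1 was 130 ± 23.5 against 69.7 ± 11.5 CPM in G2M, 124 ± 14.4 against 74.7 ± 6.66 CPM in early S and 126 ± 6.57 against 82.9 ± 12.7 CPM in histone-high S cells. Hsp90aa1 stood apart in the same 3 states, with ratios of 0.59, 0.39 and 0.28. Hsp90ab1 did not stand apart in any of them and had ratios of 0.06, 0.03 and 0.16. The smallest of these sums held 17 cells, and the ratios were not tested.

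**Figure D4:**
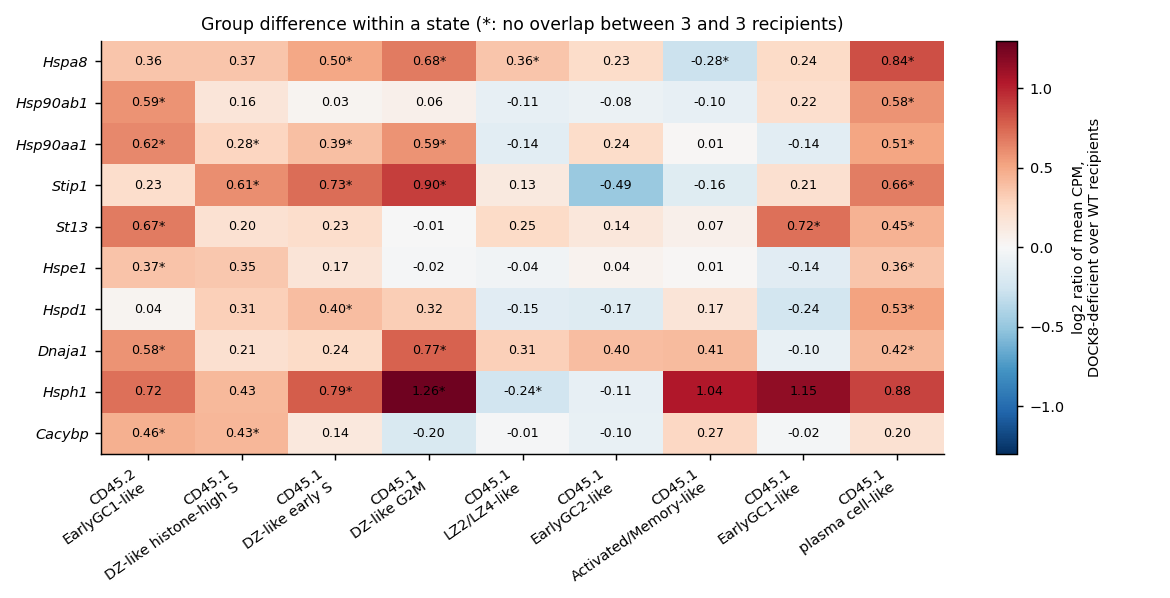
Log2 ratio of the mean CPM in DOCK8-deficient over WT recipients (colour and number) for each gene (rows) within each state (columns) that had at least 10 cells in all 6 recipients; stars mark 3 against 3 recipients without overlap. Red cells with stars gather in the first column (CD45.2 EarlyGC1-like), the DZ-like columns and the last column (plasma cell-like) of the CD45.1 cells.

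The tested comparison was that of CD45.2 with CD45.1 cells of the same recipients. In both groups its sums also enter the group differences that the choice of genes used, so calls of members are not independent of it. In WT recipients Hspa8 was lower in the CD45.2 cells and no other member was called. It was 640, 596 and 784 CPM in CD45.2 and 829, 749 and 887 CPM in CD45.1 cells of recipients 1, 2 and 3, lower in 3 of 3 recipients. The log2 difference was −0.29 ± 0.06 (SE, adjusted p = 0.00366 over 9419 genes, from the quasi-likelihood fit of edgeR). Across all genes 6.62% were called, 270 lower (2.87%) and 354 higher (3.76%) in CD45.2 cells, so 1 called gene among 10 is near this background. The median of the 10 differences was 0.0083, and 0.0032 over all genes.

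The Hspa8 difference depended on which cells were summed. Activated/Memory-like cells were 22.4, 11.8 and 24.9% of the CD45.2 and 10.9, 4.62 and 19.3% of the CD45.1 cells of these recipients. With LZ- and DZ-like cells only, the difference was −0.12 (adjusted p = 0.299). Single states were an alternative chosen after the data were seen. Each was fitted apart from the main fit, on the sums of the 3 WT recipients only, and its p-values carry that limit. The Hspa8 difference was then −0.57 ± 0.07 in Activated/Memory-like cells (adjusted p = 1.58e-12) and −0.27 ± 0.08 in early S cells (adjusted p = 0.0391). It was −0.24 in LZ2/LZ4-like, −0.16 in histone-high S, −0.14 in EarlyGC1-like, −0.06 in plasma cell-like and 0.04 in G2M cells, none of them called. Without WT recipient 1 or 2 the call over all cells was lost (adjusted p = 0.0854 and 0.117), and without recipient 3 it was −0.34 with 3 members called.

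Other members were called within single states of the WT recipients, by the same separate fits and with the same limits. In G2M cells, where 2.61% of genes were called, Hspe1 (0.58 ± 0.13, adjusted p = 4.72e-04), Hspd1 (0.64 ± 0.18, adjusted p = 0.0162) and Hsp90aa1 (0.35 ± 0.10, adjusted p = 0.0210) were higher in CD45.2 cells. In histone-high S cells, where 3.65% were called, Hspe1 (0.60 ± 0.10, adjusted p = 8.54e-06) and Hsp90ab1 (0.24 ± 0.07, adjusted p = 0.0168) were higher. Hsp90ab1 was lower in Activated/Memory-like cells (−0.29 ± 0.07, adjusted p = 6.14e-04), where 2.73% were called. Hsp90aa1 and Cacybp were lower in plasma cell-like cells (both −0.37, adjusted p = 0.00798 and 0.0310), where 23% of all genes were called. That state pools several clusters, in which 45.6 to 92.2% of the cells were CD45.2 cells. The part of this mixture was not tested. In early S cells, with 2.56% of genes called, Hspa8 was the one member called, and in EarlyGC1-like and LZ2/LZ4-like cells, with 1.56 and 4.24%, no member was.

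In DOCK8-deficient recipients St13 was higher in the CD45.2 cells, at 163, 184 and 217 CPM against 116, 140 and 138 CPM. It was higher in 3 of 3 recipients, with a log2 difference of 0.45 ± 0.12 (adjusted p = 0.0296), and it was the one member called beside 4.92% of all genes, 2.27% higher and 2.64% lower in CD45.2 cells. These CD45.2 sums also enter the group difference that the choice of genes used, so the call is not independent of that choice. With hashtag counts normalized over each cell (CLR, centred log ratio) the difference was 0.09 with an adjusted p of 0.927. Without the Xist-high cells it was 0.41 with an adjusted p of 0.0709. In the same fit Hspa8 was −0.25 (adjusted p = 0.0395), against −0.15 (adjusted p = 0.265) with those cells included. Leaving out any 1 of the 3 DOCK8-deficient recipients also ended the St13 call, with adjusted p between 0.0698 and 0.295. In WT recipients St13 had a difference of 0.20 ± 0.09 (adjusted p = 0.228).

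Genes around the members were taken from lists of the chaperone system. Hspa1a and Hspa1b, the stress-induced cytosolic HSP70 genes, whose near-identical sequences make their counts uncertain, were at 0 to 2.76 CPM in all 12 sums. Dnajb1, a J-domain partner of HSP70 that HSF1 induces, was 35.8 to 55.1 CPM and Hsf1 13.6 to 21.4 CPM. The list of 10 inducible HSF1 targets summed to 217 to 225 CPM in WT and 254 to 292 CPM in DOCK8-deficient CD45.2 cells, and to 203 to 226 and 238 to 276 CPM in CD45.1 cells. The groups did not overlap in either fraction, and this was not tested. More than any others, Fkbp4, an immunophilin that binds HSP90 (means of 73.0 against 95.6 CPM in CD45.2 cells), and Chordc1, an HSP90 co-chaperone (64.7 against 91.7 CPM), carried these sums; both were named after their values were seen. Of the 10 genes 6 were fitted, and their median log2 group difference was −0.0033 in CD45.2 and 0.11 in CD45.1 cells. In CD45.2 cells Chordc1 (0.41) and Fkbp4 (0.31) lay above 0 and Dnajb4 (−0.59), Hspa2 (−0.22) and Hspa4l (−0.07) below it.

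Most lists of other chaperones were likewise higher in histone-high S than in Activated/Memory-like cells. From Activated/Memory-like to histone-high S cells of the CD45.2 WT group the median log2 ratio was 1.57 for the 10 members, 1.04 for the 8 subunits of the cytosolic chaperonin TRiC, 1.02 for 16 other cytosolic HSP70, HSP110 and DnaJ genes, 0.83 for prefoldin and 0.60 for 17 HSP90 co-chaperones, against 0.27 over 7437 genes. It was 1.49 for the 4 inducible HSF1 targets with a level, 0.84 for 10 genes of mitochondrial protein folding, −0.08 for 3 genes of HSF1 and its partners and −0.45 for 6 immediate early genes. All 8 TRiC genes, 13 of the 16 and 12 of the 17 were highest in a DZ-like state. The 14 chaperones of the endoplasmic reticulum (ER) had a median of 0.84 for the same ratio, with 12 of 14 above 0. Only 1 of them, Canx, was highest in a DZ-like state, and the others were highest in plasma cell-like cells. Hsp90b1, the ER paralog of HSP90, was 4231 CPM in plasma cell-like against 390 CPM in histone-high S cells.

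**Figure D5:**
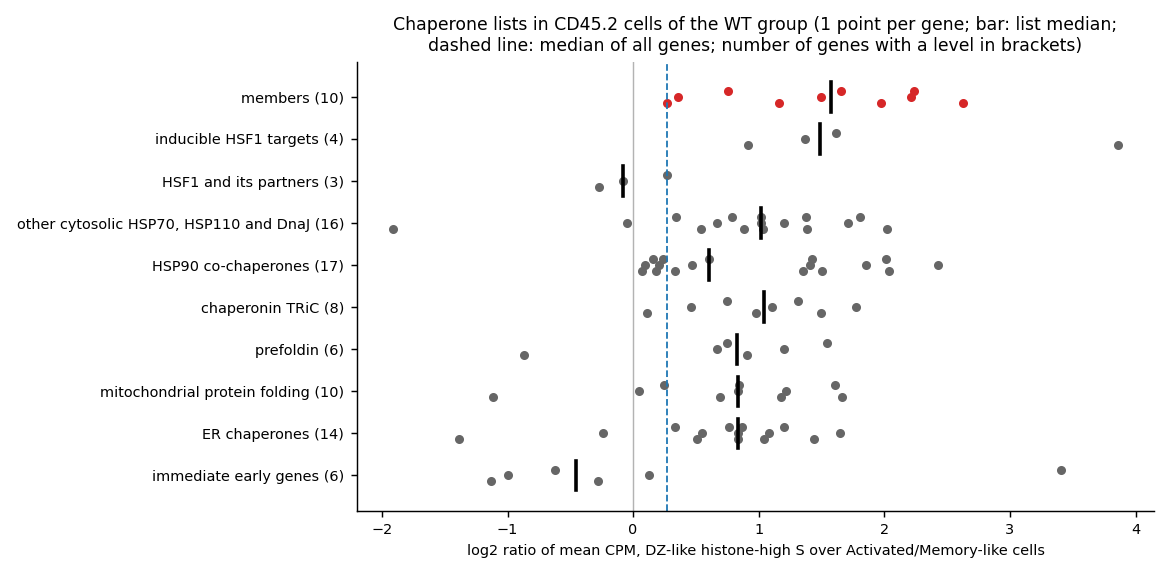
Log2 ratio of the mean CPM in DZ-like histone-high S over Activated/Memory-like cells (x axis) for each gene (points) of each list (rows, with the number of genes that had a level) in CD45.2 cells of the WT group; bars are list medians and the dashed line is the median of all genes, 0.27. Of the members, 9 lie to the right of the dashed line, with Hsp90aa1 farthest, and Hspe1 lies on it.

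In the tested sort contrast few genes of these lists were called, and they did not move one way. In WT recipients the elongation factor Eef1a1, a partner of HSF1, was lower in CD45.2 cells (−0.33 ± 0.05, adjusted p = 1.91e-05), as was the TRiC subunit Cct7 (−0.29 ± 0.09, adjusted p = 0.0424). The J-domain genes Dnajb14 (0.70 ± 0.20, adjusted p = 0.0341) and Dnajc7 (0.27 ± 0.08, adjusted p = 0.0254) were higher. None of 17 HSP90 co-chaperones, 6 tested HSF1 targets and 11 genes of mitochondrial protein folding was called, beside 6.62% of all genes in WT and 4.92% in DOCK8-deficient recipients. Among ER chaperones 3 of 14 were higher in CD45.2 cells of WT recipients, beside 3.76% of all genes, and 2 of 14 in those of DOCK8-deficient recipients, beside 2.27%. The largest difference was that of the disulfide isomerase Pdia4 (1.05 ± 0.16 in DOCK8-deficient recipients, adjusted p = 7.26e-05), with Creld2 (0.50 ± 0.15) in WT and Hsp90b1 (0.34 ± 0.10) in DOCK8-deficient recipients. The prefoldin subunit Pfdn5 was lower in DOCK8-deficient recipients (−0.42 ± 0.08, adjusted p = 0.00180). Of 10 tested immediate early genes 2 were lower in each group of recipients, beside 2.87 and 2.64% of all genes, Egr1 most of all (−2.45 ± 0.35 in DOCK8-deficient recipients, adjusted p = 3.82e-05), followed by Egr3 (−0.88 ± 0.20 in WT) and Junb (−0.74 ± 0.16 in DOCK8-deficient recipients). Egr1, Egr3 and Junb are also markers that name LZ2-like cells. LZ2/LZ4-like cells were 17.5, 9.09 and 10.9% of the CD45.2 and 45.8, 29.8 and 47.0% of the CD45.1 cells of the DOCK8-deficient recipients. In WT recipients the shares were 3.04, 14.0 and 5.44% against 24.3, 38.9 and 16.4%. Dnajc7 is likewise a marker that names Activated/Memory-like cells. The part of the mix of states in these differences was not tested.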

How the data were processed

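UMI counts per gene and barcode were deposited by the authors for 2 mRNA libraries, beside hashtag counts for 6 hashtags in each, and per the labels and the study's methods they came from Cell Ranger 5.0.1 with the mm10 reference (submitters' processing notes, which also name Seurat 4.0). The mRNA libraries held 24241 (CD45.2) and 5232 (CD45.1) barcodes, of which 14617 and 4857 had hashtag counts. Hashtags were called with HTODemux at a quantile of 0.99, and the filter on singlets asked for more than 100 but fewer than 5500 genes and a mitochondrial share below 10%. Fewer CD45.2 cells were kept here than the study kept. Scrublet called 4 of 6488 and 5 of 3204 cells and so did not work, and the 389 and 192 cells with the highest scores were left out as an alternative.

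Cells of both libraries were clustered together (SCTransform, 3000 variable genes, 30 principal components, Louvain at resolution 0.9, Seurat 5.3.0, R 4.3.3) without the members, the chaperone lists and sex-linked genes. Clusters were named from marker lists. Joining LZ2-like with LZ4-like clusters and leaving clusters under 100 cells unnamed were choices made after the clusters were seen. LZtoPrePC/Memory-like cells were shallow. A difference from the study may come from these rebuilt names.

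Counts were summed per recipient and sorted fraction and tested with edgeR 4.0.16 (quasi-likelihood, TMM, filterByExpr, Benjamini-Hochberg over all genes tested, threshold 0.05). The sort contrast used 12 sums with the recipient as a block, because both fractions came from the same animal. Within a state it was fitted apart, on the sums of the WT recipients only. Group differences used the 6 sums of a fraction. Each recipient is 1 mouse. On simulated counts with 200 changed genes, 90% of 2-fold changes were recovered in the sort contrast of WT recipients (9186 genes), 38% in that of DOCK8-deficient recipients (9182 genes), 51% in the CD45.2 group difference (9397 genes) and 73% in the CD45.1 one (8785 genes).

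The members, the marker lists and the chaperone lists were chosen with earlier results of these data known. Named genes were the 10 members, up to 3 genes per list with the largest change among those called in a sort contrast and moving alike in all 3 recipients, the 5 genes most like the members across states, and Hspa1a, Hspa1b, Dnajb1 and Hsf1. Alternatives were DESeq2 1.42.0, RLE factors, no filter on low counts, another hashtag rule or normalization, a stricter cell filter, other cells summed, other clusterings, no recipient block and each recipient left out. Chosen after the data were seen were the removal of Xist-high cells, the sort contrast within states, non-immunoglobulin totals and UMIs per cell. Figures were drawn with Python 3.11.15. The level of the B cell identity list is not reported here.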

Additional observations from a re-analysis of the deposited data

Results flagged for a closer look

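Cacybp in plasma cell-like CD45.1 cells was 87.7 CPM in DOCK8-deficient replicate 2, while the other 5 recipients lay between 49.6 and 60.6 CPM. Its gap to the nearest recipient was 0.71 of the whole range, above Dixon's limit for 6 values. The value rests on 69 counts in 69 cells. In all 70 groups of values were examined and 1 was singled out, where chance singles out about 1 in 20.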

How the results depend on the processing

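In the main sums depth limited the DOCK8-deficient CD45.2 cells most, with 37 to 88 cells each. With the 3-fold hashtag rule these sums held 219, 140 and 414 cells, and those of the WT group 1517 to 2569. With hashtags normalized over each cell they held 288, 119 and 414, and those of the WT group 1576 to 2174. The CD45.1 sums of the DOCK8-deficient group then held only 26, 16 and 50 cells. In the sort contrast of WT recipients 624 genes and 1 member were called. The counts were 392 and 0 with hashtags normalized over each cell (CLR), 1832 and 2 with all kept cells, 305 genes with DESeq2, and 2 members with LZ- and DZ-like cells only. Without the replicate block 509 genes and 0 members were called, and the Hspa8 call was lost (adjusted p = 0.105). Leaving out 1 recipient gave 183 to 1310 genes and 0 to 3 members, lowest without WT replicate 2 and highest without WT replicate 3. In DOCK8-deficient recipients 463 genes and 1 member were called. The counts were 811 and 2 with the 3-fold hashtag rule, 141 and 0 with CLR, 839 genes with all kept cells, 301 and 3 with LZ- and DZ-like cells only, 781 genes without the Xist-high cells, 0 members with no filter on low counts, and 357 genes and 1 member without the replicate block. Leaving out 1 recipient gave 172 to 730 genes and 0 to 1 members, and the count fell to 203, 269 and 172 without DOCK8-deficient replicates 1, 2 and 3. The cause was not tested.

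The CD45.2 group difference had 19 genes called and a member median of 0.44. It had 12 genes with the 3-fold rule, 133 with all kept cells, 6 with LZ- and DZ-like cells only, 141 with no filter, 100 with DESeq2, and 67 and a median of 0.11 without the Xist-high cells. Leaving out 1 recipient gave 7 to 54 genes and medians of 0.30 to 0.55. The CD45.1 group difference had 0 genes called and a median of 0.23. It had 1 gene and a median of 0.35 with all kept cells, 1 gene with LZ- and DZ-like cells only and 50 with no filter. Leaving out 1 recipient gave 0 to 8 genes, with 8 without WT replicate 2, and medians of 0.16 to 0.31. In CD45.2 EarlyGC1-like cells the median went from 0.52 to 0.35 with CLR. Within single states of WT recipients, among members called over all cells or in that state, the sort difference turned its sign for Hspa8 in G2M (0.0382), Hsp90aa1 in G2M (0.35) and Hsp90ab1 in histone-high S cells (0.24). Values called in neither also changed sign, such as Cacybp in histone-high S (0.19) and Hspd1 in Activated/Memory-like cells (−0.33). Across clusterings, hashtag rules, totals and left-out recipients 8 to 10 of the 10 members were highest in a DZ-like state, and the Hsp90aa1 ratio of DZ-like to LZ2/LZ4-like cells was 2.66 (2.40 to 2.83).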
